A study of Mus musculus with 6 samples.

Results

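The phagocyte NADPH oxidase was followed through 5 of its genes, Cybb, Cyba, Ncf1, Ncf4 and Rac2, in mouse peritoneal exudate cells, a macrophage-rich preparation that the labels also call peritoneal macrophages. Every probe set whose only platform symbol is 1 of these names was taken, which gave 6 of the 12488 probe sets on the Affymetrix array: 2 for Cyba and 1 for each of the other 4 genes. The enzyme carries electrons from NADPH across a membrane to oxygen and so makes superoxide, the starting point of the oxidative burst with which macrophages and neutrophils attack ingested microbes. Its membrane part is a heterodimer of the catalytic chain encoded by Cybb and the smaller chain encoded by Cyba, and its cytosolic part includes the organiser encoded by Ncf1, the phosphoinositide-binding subunit encoded by Ncf4 and the small GTPase Rac2. In humans, loss of either membrane chain or of the Ncf1 or Ncf4 product causes chronic granulomatous disease, an immune deficiency, and interferon-γ is a classical priming signal for the oxidase in macrophages.

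There were 6 groups with 1 array each, all with the strain label C57BL/6. They were cells treated with lipopolysaccharide (LPS) and interferon-γ from mice without NF-IL6 (KO), from the knock-in line labelled KI(LAP) (KI) and from wild-type mice (WT), and untreated cells of the same 3 genotypes. The factor NF-IL6, now called C/EBPβ, is the product of Cebpb and binds DNA through a basic leucine zipper; its long, activating isoform is known as LAP. Treatment lasted 12 h in the stimulated KO and KI cells, while the label of the stimulated WT cells states no duration, so a difference between WT and the other genotypes after stimulation cannot be told apart from a difference in time. Age, the way the exudate was raised, the part of Cebpb removed or replaced, and the number of animals behind each array were not stated.

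Signals were deposited as MAS5 intensities on a linear scale. The array medians ran from 131 to 185, and all 6 oxidase probe sets lay above a floor of 98.0, the 40th percentile of all signals, on every array. With 1 array a group, the number of arrays limits the precision, and a signal cannot separate a change in the RNA of each cell from a change in which cells were present. Cebpb, the targeted gene, gave 59.0 and 12.7 in stimulated and untreated KO cells, 5890 and 2284 in KI cells, and 9329 and 5492 in WT cells. Of 12 macrophage markers, 10 had a probe set and each passed the floor on at least 1 array, with summed signals of 35821 to 48998 in stimulated and 57691 to 60309 in untreated cells. The members moved both ways. Adgre1 was at 6126, 5451 and 5562 in stimulated KO, KI and WT cells, against 3056, 2031 and 2260 in the untreated cells. Csf1r was at 1799, 2901 and 4787, against 10800, 11082 and 6667. The summed signals of 12 of 14 neutrophil markers were 1282 to 2368 in stimulated and 1621 to 3255 in untreated cells, with Ngp, Cxcr2 and S100a9 under the floor on every array. Of the 3255, which was in untreated KI cells, Mmp9 gave 1922. Those of 9 of 10 B-cell markers were 4146 to 5442 and 5737 to 7410, with Cr2 under the floor on every array, and 6 of 7 measured T-cell markers were under it on every array. The B-cell sum also hides members that differ. Its largest, Blnk, was at 4261, 3539 and 2789 in untreated KI, KO and WT cells, and Cd22 had the same order. Cd79a was at 152, 1129 and 1152, Cd79b at 128, 890 and 1157 and Ms4a1 at 319, 795 and 730. The part of B cells in the oxidase signals was not tested.

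Rac2 was the oxidase gene that rose with stimulation. Rac2 is a small GTPase of blood cells that, once loaded with GTP, completes the active oxidase. Its signal was 12008 in stimulated KO cells, 13010 in stimulated KI cells and 9924 in stimulated WT cells, against 5684, 8263 and 4611 in untreated KO, KI and WT cells. All 3 stimulated signals lay above all 3 untreated ones, which was also the case for 9.76% of the 9344 probe sets tested. The ratio of stimulated to untreated signal was 2.11 in KO, 1.57 in KI and 2.15 in WT cells. The mean log2 change over the 3 genotypes was 0.95 (SE 0.14, limma adjusted p = 0.0202, higher in 3 of 3 genotypes), which placed it at percentile 94.2 of all probe sets tested. Rac2 was the 1 oxidase probe set of 6 past the test, where 5.03% of all probe sets rose and 6.01% fell.

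The error of this fit comes from how unevenly the 3 genotypes responded, not from replicate cultures, and the Rac2 call rests on all 6 arrays. With any 1 array left out, its log2 change was 0.87 to 1.09 and its limma adjusted p 0.114 to 0.315. It was also short of the threshold without the genotype as a block (adjusted p = 0.0564) and with no filter on low signals (adjusted p = 0.130), while the other 7 settings gave adjusted p from 0.000504 to 0.0418.

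Rac2 was also ordered by genotype. In stimulated cells the KI signal was 1.31-fold that of WT and the KO signal 1.21-fold that of WT, and in untreated cells the same ratios were 1.79 and 1.23. The order KI, KO, WT therefore held in both states, an arrangement found in 3.66% of all probe sets. That share counts this order alone, and not every order that is the same in both states. Ncf1 also kept an order in both states, with KO highest, then WT, then KI. From the highest to the lowest of the 6 Rac2 signals, the 1 gap under the residual SD of 0.18 (log2) was that between stimulated KI and stimulated KO cells. The residual SD, here and for the other oxidase probe sets, is made from the same 6 signals and is not a spread of replicates. The mean log2 difference over both states was 0.62 for KI against WT (SE 0.17, limma unadjusted p = 0.0157, adjusted p = 0.227) and 0.29 for KO against WT (SE 0.17, limma adjusted p = 0.578), and neither passed. Beside these Rac2 signals, 6 of 7 dendritic-cell markers summed to 5663, 6932 and 3893 in stimulated KI, KO and WT cells, with Zbtb46 under the floor on every array. Their sum was 9316 in untreated KI cells, against 3562 in untreated KO and 3251 in untreated WT cells. In untreated KI cells most of it was Itgax, an integrin chain also found on macrophages. Itgax was at 7301 in untreated KI, 1799 in untreated KO and 816 in untreated WT cells, while Flt3, a growth factor receptor, ran the other way at 375, 756 and 746. In stimulated KO cells the largest members were instead Fscn1 and Ccr7, at 3079 and 1897. These were at 1913 and 335 in stimulated KI and at 1318 and 436 in stimulated WT cells. The part of dendritic cells in the Rac2 signal was not tested.

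**Figure D1:**
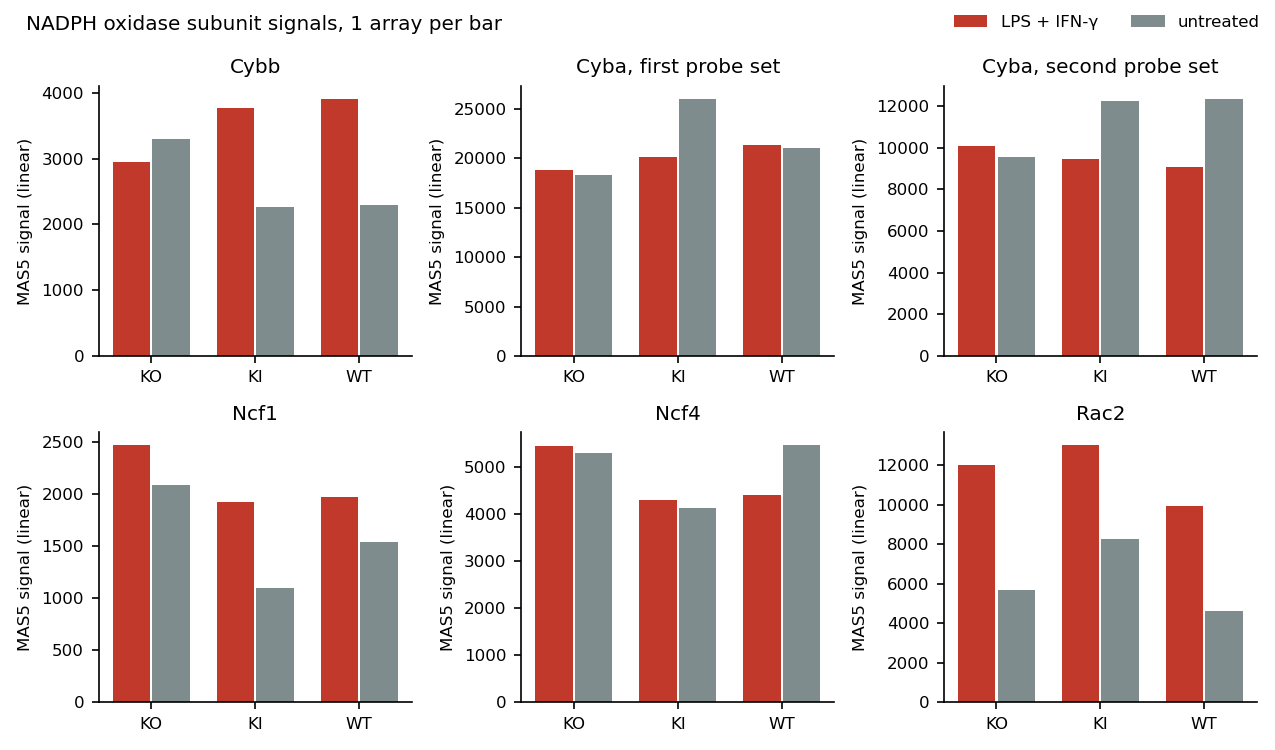
MAS5 signal (linear scale, y axis from 0) of the 6 oxidase probe sets on each array, with stimulated (red) left of untreated (grey) bars for KO, KI and WT cells and 1 array per bar. Rac2 has its 3 stimulated bars, 9924 to 13010, above its 3 untreated bars, 4611 to 8263, whereas for Cybb the KO pair runs opposite to the KI and WT pairs.

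The membrane chain encoded by Cybb, which holds the haem groups and the NADPH site of the enzyme, did not move the same way in the 3 genotypes. Its signal was 2952 in stimulated KO cells, 3780 in stimulated KI cells and 3912 in stimulated WT cells, against 3309, 2271 and 2299 in untreated KO, KI and WT cells. KI and WT cells were close to each other in both states, and the KO signals lay between them with the untreated one higher than the stimulated one. The ratio of stimulated to untreated signal was 0.892 in KO, 1.66 in KI and 1.70 in WT cells. On the log2 scale the changes were -0.16, 0.73 and 0.77, so that the change in KO was lower than in WT by 0.93, percentile 8.25 of that difference among all probe sets. These are differences of single arrays with no test.

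The mean Cybb log2 change over genotypes was 0.45 and did not pass (SE 0.22, limma adjusted p = 0.271, higher in 2 of 3 genotypes). The KO signal was 0.755-fold the WT one in stimulated cells and 1.44-fold in untreated cells, so the mean over both states was a log2 difference of 0.06 for KO against WT (SE 0.27, limma adjusted p = 0.954) and of -0.03 for KI against WT (SE 0.27, limma adjusted p = 0.976). No neighbouring signals in the order of the 6 arrays differed by more than the residual SD of 0.37 (log2), which for Cybb includes the opposite change in KO.

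Ncf1 encodes the cytosolic organiser that, when phosphorylated, brings the cytosolic subunits to the membrane. Its signal was 2467 in stimulated KO cells, 1926 in stimulated KI cells and 1973 in stimulated WT cells, against 2087, 1095 and 1540 in untreated KO, KI and WT cells. Each genotype was higher after stimulation, with ratios of 1.18, 1.76 and 1.28 in KO, KI and WT cells, but the groups overlapped because untreated KO cells were above stimulated KI and WT cells. The mean log2 change of 0.47 did not pass after adjustment (SE 0.16, limma unadjusted p = 0.0315, adjusted p = 0.140, higher in 3 of 3 genotypes). The same 3 signs were seen in 15.4% of all probe sets.

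KO cells had the highest Ncf1 signal in both states and untreated KI cells the lowest of all. The KI signal was 0.781-fold the KO one in stimulated cells and 0.525-fold in untreated cells. Averaged over both states, the log2 difference was -0.64 for KI against KO (SE 0.20, limma unadjusted p = 0.0214, adjusted p = 0.624), 0.38 for KO against WT (SE 0.20, limma adjusted p = 0.561) and -0.26 for KI against WT (SE 0.20, limma adjusted p = 0.495). None of these passed.

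The RefSeq promoter windows of Cybb and Ncf1 are shown because both genes had higher signals after interferon-γ with LPS in KI and WT cells and because both windows hold matches to motifs of interferon-responsive factors. Neither change passed the test, and Ncf1 was also higher in stimulated KO cells. Since the windows were picked for their matches, finding matches in them is no result, and a link to the signals was not tested. No window was available for Rac2 or Ncf4. Each window runs from 250 bases before to 50 after the annotated start, 5′ to 3′ on the gene's strand, in build GRCm38.p6. Capitals mark every match, on either strand, to 4 motifs: GAGGAA, the core bound by PU.1 (28.3% of all 32851 windows hold it), GAAA and GAAA parted by any 2 bases, a core of the interferon-stimulated response element (3.44%), TTCNNNGAA, a core of the gamma-activated site (8.3%), and TTGCNNAA, a core of C/EBP sites (10.8%).
Cybb, chrX:9469275-9469574, minus strand: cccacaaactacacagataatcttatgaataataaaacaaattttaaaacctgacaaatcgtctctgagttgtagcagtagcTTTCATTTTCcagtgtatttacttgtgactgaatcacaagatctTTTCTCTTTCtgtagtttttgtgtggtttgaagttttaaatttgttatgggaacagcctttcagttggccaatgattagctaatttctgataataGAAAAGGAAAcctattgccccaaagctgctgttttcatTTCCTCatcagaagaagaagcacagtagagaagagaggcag
Ncf1, chr5:134229576-134229875, minus strand: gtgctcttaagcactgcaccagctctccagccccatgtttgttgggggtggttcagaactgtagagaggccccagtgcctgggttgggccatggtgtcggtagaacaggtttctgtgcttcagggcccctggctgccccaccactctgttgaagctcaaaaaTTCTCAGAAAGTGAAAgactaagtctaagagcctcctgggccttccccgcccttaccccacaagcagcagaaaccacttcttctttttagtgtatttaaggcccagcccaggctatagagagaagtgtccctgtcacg
In the Cybb window 3 matches to the interferon-stimulated core begin 168, 124 and 29 bases before the start, and 1 match to the PU.1 core lies just after it. In the Ncf1 window a gamma-activated core begins 88 bases and an interferon-stimulated core 82 bases before the start, and their letters overlap. The Cyba window held no match to any of the 4 motifs, and none of the 3 windows held the C/EBP core. A match is a stretch of letters and not a measured site, and a window without one says nothing of binding elsewhere.

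Cyba, the smaller membrane chain that stabilises the catalytic one, had 2 probe sets. On the first, the brighter of them, its signal was 18784 in stimulated KO cells, 20174 in stimulated KI cells and 21385 in stimulated WT cells, against 18287, 26033 and 21020 in untreated KO, KI and WT cells. The 6 signals spanned 1.42-fold, and the 1 gap between neighbours above the residual SD of 0.16 (log2) set untreated KI cells above the rest. On the second, whose identifier ends in a suffix that in Affymetrix naming marks probes shared with other sequences, the signal was 10063 in stimulated KO, 9448 in stimulated KI and 9080 in stimulated WT cells, against 9557, 12249 and 12335 in untreated KO, KI and WT cells. Here untreated KI and WT cells stood above the other 4 arrays, so the probe sets agreed that KI was lower after stimulation and disagreed on WT. Pearson's r between the 2 probe sets was 0.61 over 6 arrays that share their RNA, as a description. The mean log2 change was -0.10 on the first (SE 0.14, limma adjusted p = 0.684) and -0.25 on the second (SE 0.15, limma adjusted p = 0.357). With median centring, which moved the whole stimulation contrast up by 0.12 on the log2 scale, the value on the first was 0.020.

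Ncf4, the subunit that binds phosphatidylinositol 3-phosphate on the phagosome membrane, had the narrowest range of the 6 probe sets. Its signal was 5441 in stimulated KO cells, 4285 in stimulated KI cells and 4395 in stimulated WT cells, against 5287, 4127 and 5455 in untreated KO, KI and WT cells. The 6 signals spanned 1.32-fold and fell in 2 blocks, with both KO arrays and untreated WT cells above both KI arrays and stimulated WT cells. The gap between the blocks was 0.27 on the log2 scale against a residual SD of 0.15. The blocks were read from the sorted signals and the SD is made from the same signals, so this does not show that the blocks differ. The mean log2 change with stimulation was -0.07 (SE 0.13, limma adjusted p = 0.752) and turned to 0.050 with median centring. The mean log2 difference was 0.13 for KO against WT (SE 0.16, limma adjusted p = 0.750), -0.22 for KI against WT (SE 0.16, limma adjusted p = 0.487) and -0.35 for KI against KO (SE 0.16, limma adjusted p = 0.689).

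**Figure D2:**
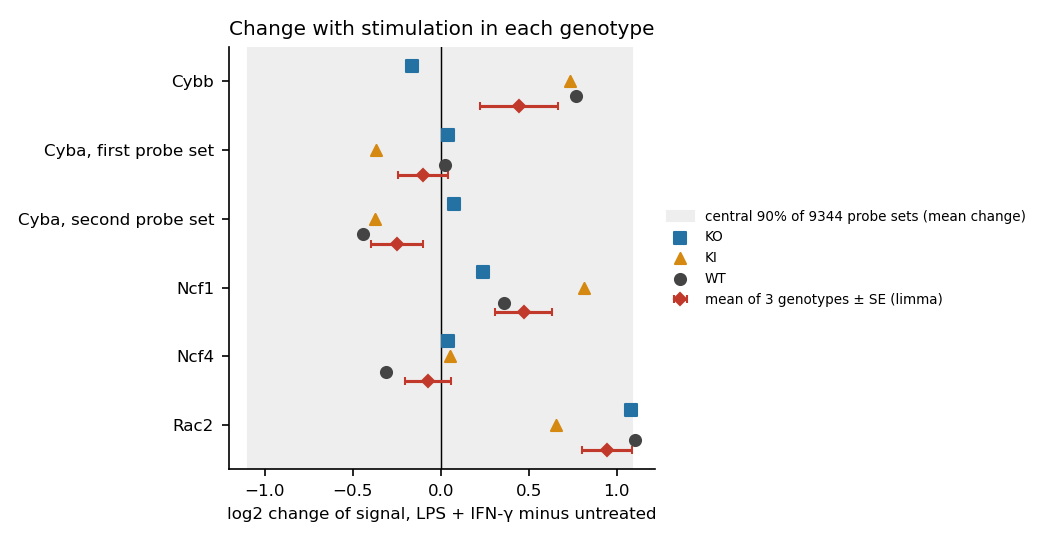
Log2 change of signal (x axis, stimulated minus untreated) for each oxidase probe set in KO (squares), KI (triangles) and WT (circles) cells, with the mean of the 3 genotypes and its SE from limma (red diamonds) and the central 90% of the mean changes of 9344 probe sets (grey band, -1.09 to 1.09). The Rac2 points lie between 0.65 and 1.11, and the Cybb points divide into -0.16 for KO and 0.73 and 0.77 for KI and WT.

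Over the 5 oxidase genes, with the first probe set for Cyba, the median of the mean log2 changes was 0.45 (range -0.10 to 0.95) and 3 of 5 were above 0, against a median of -0.12 and 36% above 0 over all 9344 probe sets. Within a genotype, Rac2 was the 1 probe set of 6 with a log2 change of at least 1 in KO (1.08), where 16.2% of all probe sets changed by that much in either direction, and in WT (1.11), where 18.6% did. In KI 0 of 6 did, against 13.6% of all probe sets. In 4 of 6 probe sets the direction of change differed between genotypes, as it did in 37.8% of all probe sets and in 43.0% of those above the floor on every array, and 4 of 6 stayed within 2-fold over all 6 arrays, as did 51.0% of all probe sets. Across the 6 arrays Pearson's r between genes ran from -0.91 for Cyba and Ncf1 to 0.68 for Cybb and Ncf1, as a description over arrays that share genotypes and states.

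Between genotypes, no oxidase gene passed the test, which does not show that the genotypes were alike. For KO against WT 0 of 6 probe sets passed the limma test (adjusted p 0.561 to 0.954) and 0 had an unadjusted p under 0.05, where 0% of all probe sets passed and 10.1% had such a p. For KI against WT 0 of 6 passed (adjusted p 0.227 to 0.976), against 0.0107% of all, and 1 of 6, Rac2, had an unadjusted p under 0.05, against 17.1% of all. For KI against KO 0 of 6 passed (adjusted p 0.624 to 1), against 0% of all, and 1 of 6, Ncf1, had an unadjusted p under 0.05, against 7.53% of all. In single arrays, 0 of 36 differences between genotypes within a state reached 1 on the log2 scale (range -0.93 to 0.84). Over all probe sets that size was reached by 5.82%, 6.81% and 4.25% for KO against WT, KI against WT and KI against KO in stimulated cells, and by 10.6%, 18.2% and 8.21% in untreated cells. The change with stimulation differed between genotypes by at least 1 in 0 of 18 cases, against 12.5%, 15.6% and 9.15% of all probe sets for KO against WT, KI against WT and KI against KO. KO and KI were each compared with the same WT arrays.

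**Figure D3:**
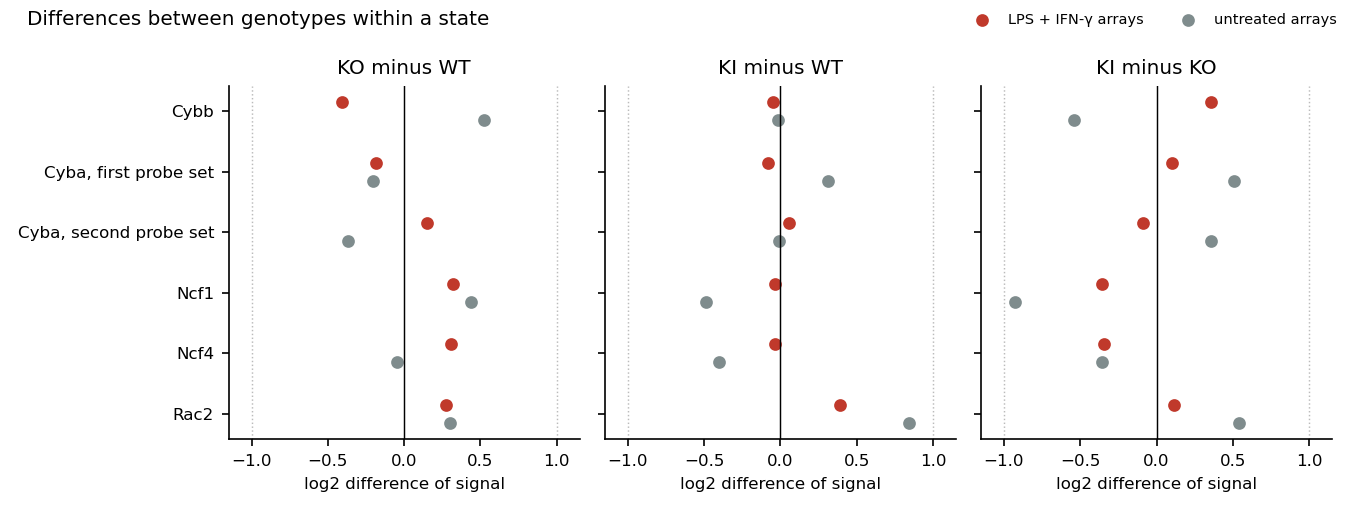
Log2 difference of signal (x axis) between genotypes for each oxidase probe set, from left to right KO minus WT, KI minus WT and KI minus KO, in stimulated (red) and untreated (grey) cells, 1 array against 1 array per point, with dotted lines at a size of 1. All 36 points lie between -0.93 (Ncf1, untreated, KI minus KO) and 0.84 (Rac2, untreated, KI minus WT).

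Partners and regulators of the oxidase were taken from a list of 18 genes, of which 13 had a probe set and 12 passed the floor. Of these 12, 2 rose and 0 fell, where 5.03% of all probe sets rose and 6.01% fell. The median log2 change was 0.08, against -0.13 over all 6767 named genes, a value that also stands beside the medians of the lists that follow. Pla2g4a, the cytosolic phospholipase that releases arachidonic acid, had a signal of 940 in stimulated KO, 939 in stimulated KI and 860 in stimulated WT cells, against 169, 145 and 216 in untreated KO, KI and WT cells (average log2 change 2.39, SE 0.24, limma adjusted p = 0.00772). Vav1, a guanine nucleotide exchange factor that loads Rac with GTP, had 2176, 2518 and 1944 in stimulated KO, KI and WT cells, against 1084, 1018 and 682 in the untreated cells (average log2 change 1.27, SE 0.15, limma adjusted p = 0.0119). Vav1 and Rac2 thus both had their 3 stimulated signals above their 3 untreated ones. So did Pla2g4a, Pik3cd and Cybc1 of this list, and 9.76% of all probe sets. Pik3cd, a leukocyte phosphoinositide 3-kinase, had a log2 change of 0.98 and missed the threshold (SE 0.24, limma adjusted p = 0.0671), as did Coro1a, an actin-binding protein (-0.55, limma adjusted p = 0.0971). Prkcb, a protein kinase C that phosphorylates the Ncf1 product, stood at 623, 656 and 423 in stimulated KI, KO and WT cells, against 4650, 893 and 417 in untreated KI, KO and WT cells (average log2 change -1.11, SE 0.59, limma adjusted p = 0.299).

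The closest relative of Rac2 on the list of paralogues, Rac1, a GTPase found in most cells, was the 1 member of 9 above the floor. Only 2 of the 9 had a probe set, and the other of these, Rac3, was under the floor on every array. The Rac1 signal was 8462 in stimulated KO, 8563 in stimulated KI and 7089 in stimulated WT cells, against 10405, 10309 and 6229 in untreated KO, KI and WT cells. Rac1 was thus lower after stimulation in KO and KI cells and higher in WT cells, and its mean log2 change was -0.13 (SE 0.15, limma adjusted p = 0.614). In both states KO and KI were above WT, with a mean log2 difference of 0.50 for each (limma adjusted p = 0.478 for KO against WT).

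Transcription factors tied to oxidase genes in earlier work gave 8 measured members of 11, of which 2 rose and 0 fell (median log2 change 0.40). Among all probe sets 5.03% rose and 6.01% fell. Irf1, an interferon-induced activator, had 8750 in stimulated KO, 8668 in stimulated KI and 9372 in stimulated WT cells, against 995, 760 and 886 in untreated KO, KI and WT cells (average log2 change 3.35, SE 0.13, limma adjusted p = 0.0006). Irf8, a myeloid interferon regulatory factor, had 6806, 8957 and 5784 in stimulated KO, KI and WT cells, against 1971, 1464 and 1574 in the untreated cells (average log2 change 2.09, SE 0.20, limma adjusted p = 0.00628). Spi1, which encodes PU.1, had 4728, 5925 and 3603 in stimulated KO, KI and WT cells, against 4420, 3587 and 4023 in the untreated cells, and did not pass (mean log2 change 0.22, SE 0.20, limma adjusted p = 0.517). Rela, an NF-κB subunit, had a log2 change of 0.45 (limma adjusted p = 0.105). Elf1, Hoxa9 and Runx1 each had at least 1 signal under the floor, and Cebpb enters the fit at the floor in KO.

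A list on the supply of NADPH, the electron donor of the oxidase, held enzymes that make NADPH and other enzymes of the pentose phosphate pathway that do not. Of its 8 measured members 4 fell and 0 rose (median log2 change -0.52), where 6.01% of all probe sets fell and 5.03% rose. The falls are therefore not all of NADPH-making enzymes. Of the 10 listed genes, G6pdx had no probe set and Me1 was under the floor on every array, so the list covers the supply in part. Idh1, the cytosolic isocitrate dehydrogenase, had 421 in stimulated KO, 369 in stimulated KI and 527 in stimulated WT cells, against 3568, 2224 and 3157 in untreated KO, KI and WT cells (average log2 change -2.75, SE 0.17, limma adjusted p = 0.00177). Its mitochondrial counterpart Idh2 fell by 2.24 on the log2 scale (SE 0.28, limma adjusted p = 0.0134), a value understated because the stimulated KO signal of 35.0 lay under the floor. Pgls and Taldo1, of the pentose phosphate pathway, fell by 0.67 and 0.64 on the log2 scale (SE 0.14 and 0.13, limma adjusted p = 0.0451 and 0.0423). Tkt, a transketolase of the same pathway, was at 7421 in untreated KI cells, 3111 in untreated KO and 2421 in untreated WT cells and did not pass (-0.41, SE 0.25, limma adjusted p = 0.367). Pgd, an NADPH-making enzyme of the pathway, had a mean log2 change of 0.05 (SE 0.24, limma adjusted p = 0.914). In single arrays its change was -0.51 in KO, 0.0024 in KI and 0.65 in WT cells.

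Of 10 measured enzymes that remove superoxide and peroxide, 1 rose and 1 fell (median log2 change 0.13), where 5.03% of all probe sets rose and 6.01% fell. Sod2, the mitochondrial superoxide dismutase, had a log2 change of 2.42 (SE 0.39, limma adjusted p = 0.0246). In single arrays its change was 1.29 in KO, 2.75 in KI and 3.23 in WT cells. Gpx4, which reduces lipid peroxides, fell by 1.21 on the log2 scale (SE 0.17, limma adjusted p = 0.0162). Sod3, the extracellular dismutase, had a log2 change of 1.11 and missed the threshold (SE 0.32, limma adjusted p = 0.0968), as did Prdx4, a peroxiredoxin (-0.62, SE 0.22, limma adjusted p = 0.155), and Txnrd1, a thioredoxin reductase (0.45, SE 0.20, limma adjusted p = 0.231). Other microbicidal genes gave 2 rises and 0 falls among 8 (median log2 change 0.09), beside the same shares of 5.03% and 6.01%. Nos2, the inducible nitric oxide synthase, and Acod1, the itaconate-producing enzyme, rose by 4.54 and 6.16 on the log2 scale (SE 0.22 and 0.31, limma adjusted p = 0.0012 for each), beside a Rac2 change of 0.95. Ltf, the iron-binding lactoferrin, whose 3 stimulated signals lay under the floor, did not pass (-0.62, SE 0.19, limma adjusted p = 0.113). Slc11a1, a phagosomal metal transporter, had a log2 change of 0.48 and missed the threshold (SE 0.25, limma adjusted p = 0.288).

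**Figure D4:**
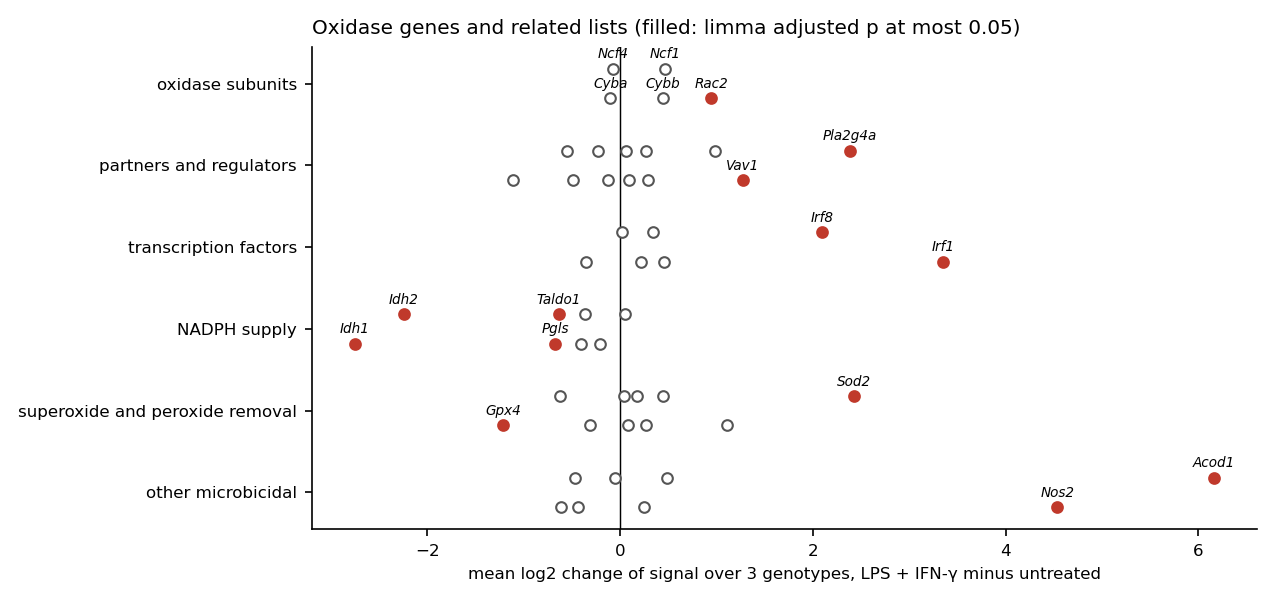
Mean log2 change of signal over 3 genotypes (x axis, stimulated minus untreated) for the 5 oxidase genes and for the measured genes of 5 related lists, 1 point per gene, filled where the limma adjusted p is at most 0.05. Cebpb is not drawn because it enters the fit at the floor in KO. Rac2 at 0.95 is the 1 filled oxidase point, and the 4 filled points of the NADPH supply list lie below 0.

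The genes whose 6 signals ran most like each oxidase gene were ranked among 4511 genes above the floor on all arrays, by the root mean square difference between log2 signals centred on their own mean. Nearest to Rac2 were Acsl5, a long-chain acyl-CoA synthetase (0.09, Pearson's r 0.99), Lta, the cytokine lymphotoxin α (0.13, r 0.97), and Bak1, a pro-apoptotic BCL2-family member (0.13, r 0.99). Acsl5 had 1911, 2171 and 1780 in stimulated KO, KI and WT cells, against 995, 1591 and 795 in the untreated cells, so it shared the KI, KO, WT order of Rac2 in both states. Nearest to Cybb were Rab10, a vesicle-traffic GTPase (0.10, r 0.97), Tmpo, a nuclear envelope protein (0.12, r 0.96), and Tnfrsf1a, a TNF receptor (0.13, r 0.91). Rab10 had 1108, 1379 and 1364 in stimulated KO, KI and WT cells, against 1021, 741 and 736 in the untreated cells, with KI and WT close to each other in both states as for Cybb.

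Ncf1 was nearest to Ncoa3, a nuclear receptor coactivator (0.08, r 0.99), Atg16l1, an autophagy protein (0.10, r 0.97), and Gtf2e2, a general transcription factor subunit (0.11, r 0.96). Ncf4 was nearest to Rad23b, a DNA repair protein (0.04, r 0.98), Commd4 (0.05, r 0.95) and Knop1 (0.06, r 0.94). Cyba was nearest to Sys1 (0.07, r 0.93), Prrg2 (0.08, r 0.92) and Tmem185a (0.08, r 0.89). These are descriptions over 6 arrays chosen as the closest of 4511, and no oxidase gene was among the 3 closest to another.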

How the data were processed

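RNA of 6 samples was hybridised to single-colour Affymetrix arrays. The deposited values are linear signal intensities that the authors made with MAS5, as the submitters' processing notes say; no source used here gives the MAS5 version, the scaling target or detection calls. The arrays' trimmed means (2% left out at each end) lay within 499 to 500, and signals were rescaled to their mean, given a floor at the 40th percentile and converted to log2. Setting aside 66 controls left 12422 probe sets, of which the 9344 that exceeded the floor on any array were tested. Of a gene's probe sets the brightest by mean log2 signal stands for it, and each oxidase probe set is also given alone. Symbols came from the platform annotation, and the gene identifiers of 6 of 6 oxidase probe sets gave the same RefSeq symbol.

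R 4.3.3, limma 3.58.1 and Python 3.11.15 were used. A single fit over 6 arrays held genotype and state, leaving 2 residual degrees of freedom. Variances were moderated by eBayes with a trend on intensity, and p-values adjusted by Benjamini-Hochberg, with a threshold of 0.05. Changes within a genotype or state have no residual degrees of freedom and no test. Most genes outside the oxidase were named by rule: up to 5 per list with the largest absolute mean change, every measured paralogue or transcription factor, and the 3 nearest patterns. Single cell-type markers, some further list members and the genes between Ncf4 and Rac2 were named outside this rule. Promoter windows were found for 3 of 5 genes. Other floors, a pseudocount, quantile normalization, median centring, other filters, eBayes without trend, other samples and no block were tried. The code was tested on simulated data. The genes and lists were chosen with earlier results of these data known.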

Additional observations from a re-analysis of the deposited data

Results flagged for a closer look

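In 4 oxidase probe sets the signal moved in opposite directions with stimulation in different genotypes, each with 1 array per state, and these differences were not tested. The same was seen in 37.8% of all probe sets and in 43.0% of those above the floor on every array. The log2 change of Cybb was -0.16 in KO, 0.73 in KI and 0.77 in WT cells, so KO minus WT was -0.93 and KI minus KO 0.90. The residual SD of the fit is made from these same changes, so it gives no separate measure of their noise. On the first Cyba probe set the change was -0.37 in KI, 0.04 in KO and 0.02 in WT cells, so KI minus WT was -0.39 and KI minus KO -0.41. On the second it was 0.07 in KO, -0.37 in KI and -0.44 in WT cells, so KO minus WT was 0.52 and KI minus KO -0.45. For Ncf4 it was 0.04 in KO, 0.05 in KI and -0.31 in WT cells, so KO minus WT was 0.35 and KI minus WT 0.37. With 1 array per group a difference in sign needs no large change, as for Ncf4.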

How the results depend on the processing

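No paired analysis was possible because the labels number no replicates; genotype was the block for stimulation. The Rac2 change kept its sign in all alternatives, and its threshold is described with it. The other oxidase probe sets stayed short of the threshold under every alternative run, and the closest were Ncf1 (adjusted p = 0.0520) and Cybb (adjusted p = 0.0729) for stimulation. Over all probe sets, 1032 passed for stimulation, 1614 with log2(signal + 32), 69 without a filter and 0 to 15 with 1 array left out. For KO against WT 0 passed, with 1 at a floor of the 20th percentile, 7 with log2(signal + 32), 1 with quantile normalization, 8 with median centring, 2 over probe sets above the floor on all arrays, and 0 to 498 with 1 array left out, 498 without stimulated WT. For KI against WT 1 passed, with 0 at a floor of the 60th percentile, 69 with log2(signal + 32), 0 with quantile normalization, 145 with median centring, 4 without a filter, 24 above the floor on all arrays, 0 without a trend, 0 with the 4 KI and WT arrays, and 0 to 539 with 1 array left out, 539 without stimulated WT. For KI against KO 0 passed, with 2 at a floor of the 20th percentile, 16 with log2(signal + 32), 21 with median centring and 4 above the floor on all arrays. The cause of these moves was not tested.

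With median centring the stimulation value turned to 0.020 for the first Cyba probe set and 0.050 for Ncf4. Small differences also turned when 1 array was left out. For stimulation the values ran from -0.17 to 0.032 for the first Cyba probe set and from -0.13 to 0.048 for Ncf4. For KO against WT they ran from -0.40 to 0.52 for Cybb, -0.35 to 0.13 for the second Cyba probe set and -0.048 to 0.31 for Ncf4. For KI against WT they ran from -0.27 to 0.21 for Cybb, -0.087 to 0.31 for the first Cyba probe set and -0.12 to 0.17 for the second Cyba probe set. For KI against KO they ran from -0.55 to 0.37 for Cybb and -0.11 to 0.38 for the second Cyba probe set.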

Other observations

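After stimulation, the KI and WT signals of the oxidase genes other than Rac2 were close to each other in the main processing. In 5 of 6 probe sets, 2 of them for Cyba, they differed by less than 0.1 on the log2 scale, with Rac2 the exception at 0.39. Of 5765 probe sets above the floor on all arrays, 17.7% were that close. The count depends on the processing. Under other settings KI minus WT reached -0.12 for Cybb, -0.14 for Ncf1, -0.13 for Ncf4 and 0.103 for the second Cyba probe set. In untreated cells 2 of 6 were that close for KI and WT (12.0% of those probe sets), and for KO and WT 0 of 6 in stimulated (18.9%) and 1 of 6 in untreated cells (15.8%). The limit of 0.1 was chosen after the values were seen, and single arrays allow no test.

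Ncf4 and Rac2 both lie on mouse chromosome 15 in the RefSeq gene order, with 10 protein-coding genes between them. Of these, 5 were above the floor on at least 1 array, and 0 passed the limma test of stimulation. The largest mean log2 change among the 5 was that of Tst (-0.88, SE 0.26, limma adjusted p = 0.104). Csf2rb2, a receptor subunit for interleukin 3 in mice, had 4589 in stimulated KO, 4222 in stimulated KI and 2986 in stimulated WT cells, against 3412, 4521 and 1644 in untreated KO, KI and WT cells (average log2 change 0.40, SE 0.20, limma adjusted p = 0.290). Csf2rb, the shared β chain of the receptors for interleukin 3, interleukin 5 and GM-CSF, had 1693, 2518 and 2618 in stimulated KO, KI and WT cells, against 3699, 2398 and 1137 in the untreated cells (average log2 change 0.05, SE 0.44, limma adjusted p = 0.954). These neighbours were looked up after the values were seen.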
